A study of Mus musculus with 62 samples.

Results

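The spermatogonia collected at postnatal days 3, 5 and 7 (P3, P5 and P7) make up 6 of the 62 mouse libraries in the series, 2 at each day, and were chosen by their sample titles. The P3 libraries (n = 2) were set against the P5 and P7 libraries (n = 4). Every group was labelled as germ cells of the genotype Ddx4-RFPTg/0, from ICR females crossed to C57BL/6N males that carried an RFP reporter under the control of the mouse vasa homologue (mvh), with the strain given as ICR x B6C3(Cg)B6F1(5N); no group received a treatment. Testes were dissociated with trypsin and the cells sorted by flow cytometry, and the 3′ ends of transcripts were sequenced from 1 ng of total RNA per library. The labels do not say that the 2 libraries of a day came from separate animals, so each p-value rests on a spread between libraries that may be technical. That spread was estimated over all 31 groups of the series, not over these 6 libraries alone. Nor do the labels state the gate used for these cells in the text held here.

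In the mouse testis the germ cells that resume division after birth settle on the basement membrane and form the first spermatogonia. Some keep a stem cell state, which GDNF from Sertoli cells maintains through the receptors GFRA1 and RET and the transcription factors that respond to them. Others pass through a progenitor state marked by NEUROG3 and SOX3 and, on exposure to retinoic acid, become differentiating spermatogonia that turn on Stra8 and Kit. Around the first week all of these states can stand side by side in 1 testis, and bulk libraries measure their mixture: fewer cells of a type and less RNA per cell cannot be told apart here.

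The 6 libraries held 3005419 to 4080845 reads of nuclear genes, with 17208 to 19195 genes detected, against 1404261 to 4485280 such reads per library over the series. Levels are given as CPM, the nuclear gene reads scaled to a common library size by TMM, always in the order replicate 1 then replicate 2. The label was checked with genes of germ cell identity. Ddx4, the vasa helicase itself, stood at 728 and 745 CPM at P3, 776 and 791 at P5 and 654 and 654 at P7. The summed level of the 22 germ cell genes was 5978 to 6345 CPM in the 6 libraries. From P3 to P5 and P7 2 of the 22 fell, Tdrd6 (log2 -3.07 ± 0.64) and Dppa5a (log2 -1.06 ± 0.21), against 5.86% of all tested genes, and both lost their call without P3 replicate 1 (adjusted p = 0.122 and 0.0687 by edgeR); Dppa5a also lost it without P5 replicate 1 (log2 -0.95). Somatic markers were low by comparison, with summed levels of 291 to 407 CPM for 21 Sertoli genes, 79.8 to 153 for 20 stromal genes, 34.7 to 98.3 for 11 endothelial genes, 19.09 to 50.6 for 16 macrophage and blood genes and 2.23 to 9.04 for 6 Leydig genes. The endothelial sum was highest in the P3 libraries, at 98.3 and 71.8 CPM, against 34.7 to 61.4 later.

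Between P3 and the later days 13 of 29 tested genes of the stem cell state and 13 of 26 of the GDNF and FGF response fell, and 4 of 24 genes of differentiating spermatogonia rose. A gene is said here to have risen or fallen when edgeR's quasi-likelihood test gave a Benjamini-Hochberg adjusted p below 0.05 over the 16008 genes tested and the change was at least 2-fold. By this rule 242 genes rose, which is 1.51% of those tested, and 938 fell, which is 5.86%. The median log2 fold change of all genes was -0.06, and P3 and later libraries did not overlap for 12.8% of genes in the upward and 19% in the downward direction. Among the genes that fell, 719 of 938 (76.7%) had a higher level in P3 replicate 1 than in P3 replicate 2, against 51.8% of all tested genes with unequal P3 values. Without P3 replicate 1 the counts were 114 higher and 413 lower.

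Of the 26 tested genes for GDNF and FGF receptors, targets and feedback inhibitors, 13 fell, against 5.86% of all tested genes. The median log2 fold change of the 26 was -1.23. The edgeR test called 0 higher, against 1.51% of all tested genes (DESeq2 and limma also called 0 higher, and 0 had a rise at an unadjusted p below 0.05). The summed level of the 26 genes was 2348 and 2219 CPM at P3, 1523 and 1598 at P5, and 764 and 839 at P7. The sums did not overlap between any 2 days, and both P7 libraries were the lowest.

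Gfra1, which encodes the GDNF co-receptor (chromosome 19, 58235581 to 58455946, GRCm38.p6), stood at 294 and 271 CPM at P3, 175 and 174 at P5, and 58.1 and 69.1 at P7. No P3 library overlapped a later one. Its log2 fold change from P3 to P5 and P7 was -1.43 ± 0.15 (SE; adjusted p = 6.2e-10 by edgeR). At P0 the mean was 91.1 CPM and at P1 279 CPM, the latter close to that of P3.

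Ret, the receptor tyrosine kinase that partners GFRA1, took a like course, with 282 and 249 CPM at P3, 179 and 182 at P5, and 59.2 and 78.2 at P7. Etv5, a transcription factor induced by GDNF and FGF, was at 242 and 257 CPM, then 179 and 153, then 59.7 and 53.9. Etv4, its close relative, had the largest fall of these, from 85.1 and 82.7 CPM at P3 to 39.9 and 27.9 at P5 and 7.26 and 8.18 at P7. The log2 fold changes over P5 and P7 were -1.26 ± 0.15 for Ret, -1.37 ± 0.19 for Etv5 and -2.38 ± 0.22 for Etv4 (adjusted p = 1.9e-08, 7.5e-07 and 1.1e-11 by edgeR). In all 3 genes each P7 library lay below each P5 library, which lay below each P3 library.

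Other targets and inhibitors of the pathway fell with them. Lhx1, a homeobox gene that depends on GDNF in cultured spermatogonia, was at 162 and 132 CPM at P3, 44.0 and 76.4 at P5, and 17.0 and 23.6 at P7 (log2 fold change -2.07 ± 0.25). Egr3, a zinc finger gene of the immediate early class, was at 43.8 and 35.1, 8.67 and 16.6, and 3.35 and 2.73 CPM (log2 -2.65 ± 0.35). Spry4, a feedback inhibitor of receptor tyrosine kinase signalling, was at 49.4 and 42.4, 17.3 and 19.7, and 5.30 and 5.45 CPM (log2 -2.19 ± 0.28). Egr2, Spry1, Dusp6, Il17rd, Bcl6b and Tspan8 fell as well, by log2 values between -1.17 and -1.51. Spry1, Spry4, Dusp6 and Il17rd act as inhibitors of the same signal.

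**Figure D1:**
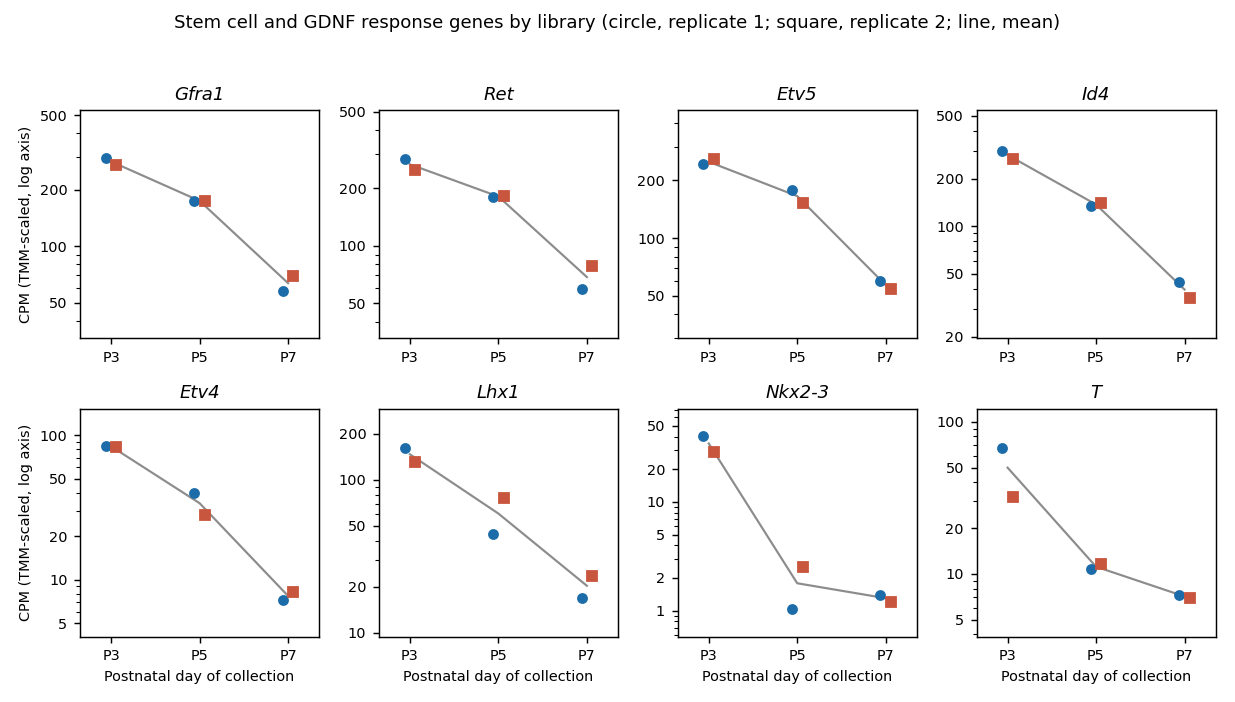
Levels of 8 genes of the stem cell state and the GDNF response in each library (TMM-scaled CPM, log axis) by postnatal day of collection; circles and squares are replicates 1 and 2 and the line joins the means. On the log axis Gfra1, Ret and Etv5 have the longer drop between P5 and P7, and Nkx2-3 and T between P3 and P5.

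The stem cell list held 29 tested members and shares genes such as Gfra1 and Lhx1 with the GDNF and FGF list, so their counts are not separate results. Of the 29, 13 fell and 2 rose, against 5.86% and 1.51% of all tested genes, and the median log2 fold change was -1.06. Its summed level was 3131 and 3118 CPM at P3, 2245 and 2231 at P5, and 1270 and 1290 at P7. Id4, an inhibitor of helix-loop-helix factors used to mark stem spermatogonia (chromosome 13, 48261116 to 48266028), was at 299 and 264 CPM at P3, 134 and 139.9 at P5, and 44.4 and 35.1 at P7. Its log2 fold change was -1.93 ± 0.19 (adjusted p = 2e-11 by edgeR), and the 3 days did not overlap.

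Nkx2-3 had the largest fall among the well-measured genes of the whole comparison. This homeobox gene (chromosome 19, 43612325 to 43615892) was at 40.1 and 28.9 CPM at P3 and at 1.04, 2.54, 1.40 and 1.21 CPM in the P5 and P7 libraries, a log2 fold change of -4.43 ± 0.43. Its P5 mean was 5.19% of the P3 mean. T, the brachyury gene, was at 67.7 and 32.1 CPM at P3 against 10.7 and 11.6 at P5 and 7.26 and 6.97 at P7 (log2 -2.48 ± 0.29). Epha2, an ephrin receptor, was at 52.3 and 36.1 against 12.8 and 14.4, then 6.70 and 4.54 CPM (log2 -2.33 ± 0.28).

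The 2 members that rose were at low levels at P3. Cxcl12, which encodes a chemokine made by niche cells, was at 1.22 and 0.498 CPM at P3 and at 18.4, 7.90, 13.7 and 12.7 CPM later (log2 3.85 ± 0.57). Tmem176b rose from 0.733 and 0.997 CPM to 4.51, 6.77, 5.30 and 0.606, the last below both P3 libraries. Under limma with a pseudocount of 5 the list had 1 member higher rather than these 2. Beside them, the summed level of the stromal markers was 110.5 and 79.8 CPM at P3, 153 and 136 at P5, and 134 and 101 at P7, and the macrophage genes C1qb and C1qc were at 0 in both P3 libraries and at 0.303 to 5.89 and 1.97 to 4.85 CPM later. The part of other cells in these rises was not tested. Nanos2, which encodes an RNA-binding protein that maintains the stem cell state, did not pass the test, with 5.38 and 11.96 CPM at P3, 7.97 and 8.74 at P5, and 3.35 and 5.15 at P7.

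**Figure D2:**
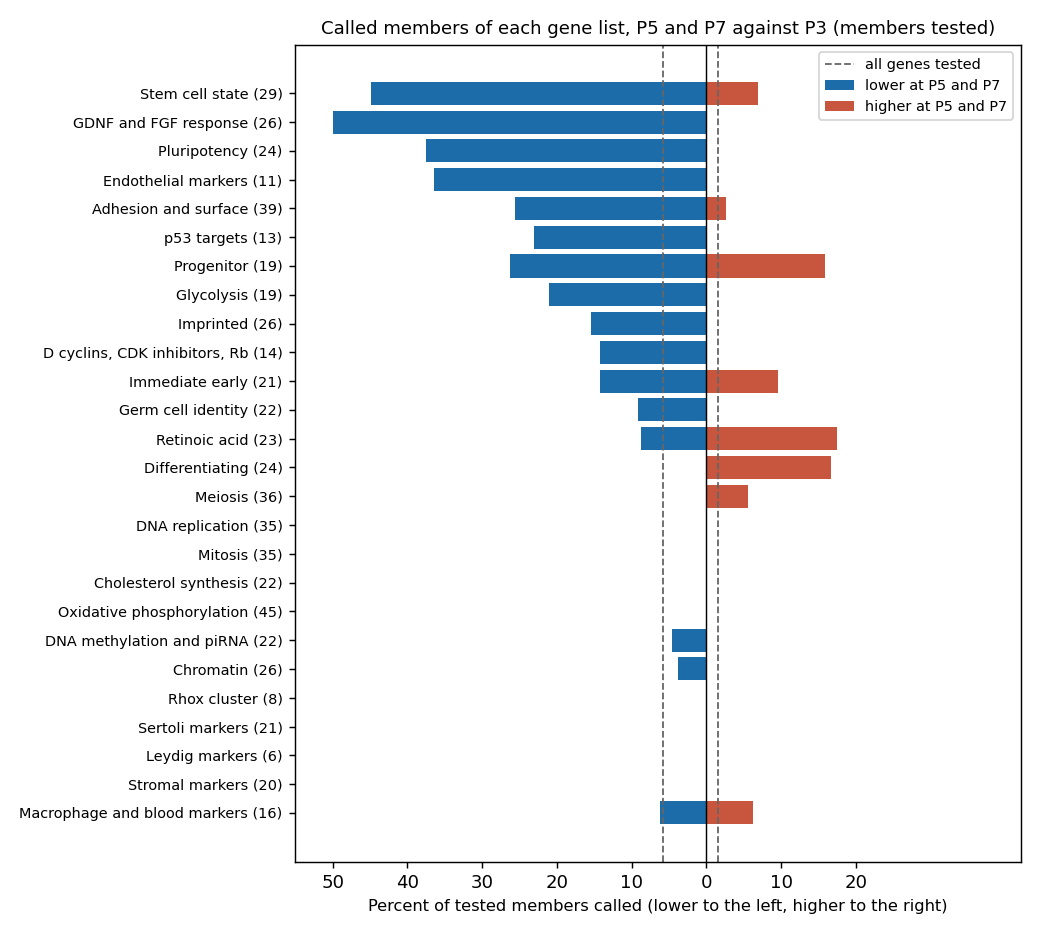
Percent of the tested members of each of 26 gene lists that fell (left) or rose (right) from P3 to P5 and P7; the number tested stands beside each name, and dashed lines mark the 1.51% and 5.86% of all tested genes that rose and fell. The GDNF and FGF list and the stem cell list reach furthest to the left, and the retinoic acid and differentiating lists furthest to the right.

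Genes of primordial germ cells and of pluripotency were also lower at the later days: 9 of 24 fell, against 5.86% of all tested genes. Their median log2 fold change was -1.14. Sox2, a core pluripotency factor, was at 31.5 and 24.4 CPM at P3, 7.28 and 8.46 at P5, and 1.95 and 1.21 at P7 (log2 -2.95 ± 0.64). Pou5f1, which encodes OCT4, was at 53.3 and 50.8, 40.9 and 31.9, and 12.01 and 11.21 CPM (log2 -1.34 ± 0.23). Tcl1, a co-activator of the AKT kinase, was at 187 and 163, 115 and 97.3, and 39.6 and 39.7 CPM (log2 -1.43 ± 0.23). Dppa2 and Dppa4, partner genes that act on chromatin in pluripotent cells, fell too, Dppa2 from 11.001 and 10.97 CPM at P3 to 0.838 and 1.82 at P7. Dnmt3l, which helps place DNA methylation in prospermatogonia, went from a P0 mean of 169 CPM to 30.8 and 9.47 at P3, 3.81 and 2.26 at P5, and 1.12 and 3.33 at P7 (log2 -2.96 ± 0.46). Its P3 libraries differed by more than 3 times, with replicate 1 the higher. Dnmt3l belongs to another list, that of the piRNA pathway and fetal de novo methylation. Of the 22 tested genes there 1 fell (4.55%, against 5.86% of all tested genes), and the median log2 fold change was -0.17.

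The remaining genes with the largest falls came from no single list. Gsc, a homeobox gene, was at 28.1 and 18.4 CPM at P3 against 0 to 3.38 later, and Elfn1, a synaptic adhesion gene in neurons, at 29.3 and 17.9 against 0.838 to 5.55. Plac8, Itpkb (an inositol phosphate kinase), Adrb1 (the beta-1 adrenergic receptor), Gngt2 (a G protein gamma subunit) and Igdcc3 fell by log2 values of -3.25, -3.14, -3.12, -3.09 and -3.05. Of these, Plac8, Gngt2 and Igdcc3 were at 61.8, 61.1 and 66.2 CPM in P3 replicate 1 and at 30.4, 27.2 and 26.9 in replicate 2. All 7 genes kept their call without P3 replicate 1.

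The adhesion and surface list had 10 of 39 members lower and 1 higher, against 5.86% and 1.51% of all tested genes. Its median log2 fold change was -0.51. Thy1, a surface glycoprotein used to enrich stem spermatogonia, was at 35.4 and 27.4 CPM at P3, 14.2 and 5.08 at P5, and 3.35 and 3.64 at P7 (log2 -2.45 ± 0.34). Itgb5, an integrin subunit, was at 153 and 129, 66.2 and 69.4, and 24.3 and 27.3 CPM (log2 -1.75 ± 0.27). Cdh1, E-cadherin, was at 92.9 and 132, 48.2 and 50.2, and 22.3 and 35.4 CPM (log2 -1.58 ± 0.24). Cxadr, a cell junction protein, was the member that rose, from 9.04 and 10.7 CPM to 15.3 and 14.9 at P5 and 34.6 and 26.4 at P7.

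Of 19 genes of glycolysis and glucose transport 4 fell and 0 rose by edgeR, against 5.86% and 1.51% of all tested genes. DESeq2 and limma also called 0 higher, and 0 were higher at an unadjusted p below 0.05 by edgeR. Of 45 nuclear genes of oxidative phosphorylation 0 were called by edgeR, DESeq2 or limma, against the same shares. At an unadjusted p below 0.05 by edgeR, 8 of them were higher and 1 lower. The largest changes, in Uqcrh (log2 0.59 ± 0.19) and Ndufa2 (log2 0.50 ± 0.16), were below the 2-fold limit. Their adjusted p were 0.030 and 0.027 by edgeR. Ldha, the muscle-type lactate dehydrogenase, was at 92.4 and 49.8 CPM at P3, 21.1 and 19.7 at P5, and 14.2 and 12.7 at P7 (log2 -2.10 ± 0.23). Ldhb, the heart-type subunit, was at 108 and 58.6, 21.5 and 28.2, and 16.2 and 17.9 CPM (log2 -2.01 ± 0.29). Slc2a3, a neuronal-type glucose transporter, and Hk2, a hexokinase, fell by log2 values of -2.08 ± 0.46 and -1.27 ± 0.25. P3 replicate 1 was the higher P3 library for all 4, and without it Slc2a3 (adjusted p = 0.059) and Hk2 (adjusted p = 0.083 by edgeR) lost their call. The summed level of the glycolysis list, to which these 4 add little, was 3362 and 3763 CPM at P3, 3684 and 3666 at P5, and 2422 and 2615 at P7. Pkm, pyruvate kinase, accounts for part of that sum, with 468 and 558, 546 and 513, and 247 and 256 CPM; it fell from P5 to P7 (log2 -1.07 ± 0.19).

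Among 26 tested imprinted genes 4 fell and 0 rose by edgeR (0 by DESeq2 and limma, 2 at an unadjusted p below 0.05). For each list in this paragraph, the shares over all tested genes were 5.86% lower and 1.51% higher. Igf2, the fetal growth factor expressed from the paternal allele, was at 89.7 and 76.3 CPM at P3, 26.7 and 25.4 at P5, and 19.3 and 14.8 at P7 (log2 -1.97 ± 0.25). Mest was at 189.7 and 143, 61.0 and 68.0, and 33.5 and 48.2 CPM (log2 -1.70 ± 0.18). Rasgrf1 and Slc22a18 fell as well, and both lost their call without P3 replicate 1. Among the D cyclins, CDK inhibitors and Rb family, 2 of 14 fell: Cdkn1a, which encodes the inhibitor p21, from 46.4 and 23.2 CPM to 14.2 and 10.2 and then 9.21 and 5.76, and Ccnd3, cyclin D3, from 104 and 84.7 to 48.5 and 41.2 and then 29.9 and 39.4. Of 13 p53 targets, Cdkn1a, Pmaip1 and Zmat3 fell, and Pmaip1 and Zmat3 lost their call without P3 replicate 1.

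Cell division genes were called in neither direction, where 1.51% of all tested genes rose and 5.86% fell. Of 35 genes of DNA replication and 35 of mitosis, 0 were called by edgeR, DESeq2 or limma; at an unadjusted p below 0.05, 1 replication gene was higher and 9 lower, and 0 mitosis genes were higher and 4 lower. Mki67, the proliferation marker, was at 304 and 318 CPM at P3, 218 and 301 at P5, and 211 and 236 at P7. Top2a, topoisomerase II alpha, was at 473 and 608, 448 and 461, and 365 and 339 CPM. Its change (log2 -0.43 ± 0.15, adjusted p = 0.039 by edgeR) passed the p limit but was below the 2-fold limit. That of Mki67 was log2 -0.37 ± 0.21 (adjusted p = 0.26 by edgeR). Mki67 and Top2a both stood well above their P0 means of 29.0 and 62.4 CPM at all 3 days.

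Genes that rose included the marks of the progenitor and differentiating states. Of 24 tested genes of differentiating spermatogonia 4 rose and 0 fell by edgeR (0 by DESeq2 and limma, 3 lower at an unadjusted p below 0.05), with a median log2 fold change of 0.54. The 19 progenitor genes went both ways, with 3 higher, 5 lower and a median of -0.02; those lower included Pou5f1, Dppa2, Dppa4, Utf1 and Cdh1. For retinoic acid synthesis, breakdown, receptors and targets, 4 of 23 rose and 2 fell. Over all tested genes 1.51% rose and 5.86% fell.

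Sox3, a progenitor transcription factor on the X chromosome (60891366 to 60893430), was at 8.31 and 16.4 CPM at P3, 54.4 and 44.6 at P5, and 75.7 and 61.8 at P7 (log2 2.23 ± 0.31, adjusted p = 2.2e-07 by edgeR). Neurog3, which encodes neurogenin 3, was at 0.978 and 0.748, 6.59 and 5.36, and 11.2 and 13.3 CPM (log2 3.24 ± 0.74, adjusted p = 0.0014 by edgeR). Dmrtb1, whose product (DMRT6) acts in differentiating spermatogonia (chromosome 4, 107676288 to 107704011), was at 11.7 and 12.7, 39.5 and 44.3, and 157 and 127 CPM (log2 2.65 ± 0.32, adjusted p = 1.8e-08 by edgeR). The P7 mean of Dmrtb1 was 1160% of its P3 mean, and in all 3 genes the P7 libraries lay above the P5 libraries, which lay above those of P3.

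Stra8, the retinoic acid target that marks the entry into differentiation and later meiosis, was at 67.2 and 51.6 CPM at P3, 167 and 163 at P5, and 267 and 322 at P7. The days did not overlap, and the log2 fold change was 1.89 ± 0.38 (adjusted p = 0.00079 by edgeR). At P0 and P1 its means had been 13.8 and 33.5 CPM. Rec8, a meiotic cohesin subunit, rose from 18.8 and 16.4 CPM to 34.0 and 36.9 and then 47.2 and 45.4 (log2 1.199 ± 0.23).

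The promoters of Stra8 and Rec8 are shown because both genes are known targets of retinoic acid in spermatogonia and both rose. The bases are those of RefSeq on GRCm38.p6, 250 before to 50 after an annotated start, on the plus strand, at chr6:34920698-34920997 for Stra8 and chr14:55617916-55618215 for Rec8. Capitals mark AGGTCA, the half-site bound by retinoic acid receptors, searched on both strands.
Stra8: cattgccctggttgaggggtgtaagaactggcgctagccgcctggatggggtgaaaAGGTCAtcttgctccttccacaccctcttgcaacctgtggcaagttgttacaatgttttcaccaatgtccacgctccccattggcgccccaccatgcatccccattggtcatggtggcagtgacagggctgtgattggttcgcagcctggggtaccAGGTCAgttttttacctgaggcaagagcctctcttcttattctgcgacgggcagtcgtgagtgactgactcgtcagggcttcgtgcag
Rec8: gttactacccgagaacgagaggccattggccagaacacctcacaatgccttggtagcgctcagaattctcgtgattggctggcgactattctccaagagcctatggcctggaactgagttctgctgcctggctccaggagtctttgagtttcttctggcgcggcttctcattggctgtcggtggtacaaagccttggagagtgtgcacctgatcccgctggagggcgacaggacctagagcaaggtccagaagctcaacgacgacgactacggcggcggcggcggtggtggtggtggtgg
The Stra8 window held the motif at 194 and 38 bases before the start, in the same orientation, and the Rec8 window held 0. Of 32851 promoters of this length 16.3% held at least 1 copy and 1.81% at least 2, and 2 copies in a window are a description, not a binding site. All 6 called retinoic acid genes had an entry; Rarg had 1 copy at 1 of 2 starts, and Cyp26b1, Dhrs3 and Hoxb1 had 0.

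Rarg, Cyp26b1 and Dhrs3, genes of retinoic acid handling called over P5 and P7, changed at low levels. Rarg, the gamma receptor present in progenitors, was at 1.47 and 0.498 CPM at P3, 2.43 and 6.49 at P5, and 7.54 and 7.27 at P7 (log2 2.50 ± 0.61; without P3 replicate 2 it was no longer called, adjusted p = 0.0883 by edgeR). Cyp26b1, which breaks retinoic acid down, was at 0.733 and 0.997, 6.24 and 0.282, and 10.3 and 7.88 CPM; the P5 libraries lay on either side of those of P3, and the call was lost without either P3 library or without P5 replicate 1. Dhrs3, a retinal reductase, fell from 10.8 and 13.0 CPM to 6.59 and 3.38 and then 3.35 and 2.73.

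Kit, the receptor for stem cell factor and the classical mark of differentiating spermatogonia (chromosome 5, 75574987 to 75656722), had its highest mean at P7. Whether its course differs from that of Stra8 was not tested. Kit was at 104 and 81.0 CPM at P3, 92.6 and 133 at P5, and 223 and 265 at P7. The P3 and P5 libraries overlapped and both P7 libraries were higher. Over P5 and P7 together the log2 fold change was 0.84 ± 0.21, below the 2-fold limit (1.03 without P3 replicate 1, which passed, adjusted p = 0.0167 by edgeR), while from P5 to P7 Kit rose by 1.11 ± 0.23 (adjusted p = 0.0018 by edgeR); without P5 replicate 1 or P7 replicate 2 that step was no longer called (log2 0.88 and 0.98). Sohlh1, a transcription factor needed for differentiation, was at 104 and 106, 134 and 96.7, and 180.1 and 175 CPM and passed neither test.

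**Figure D3:**
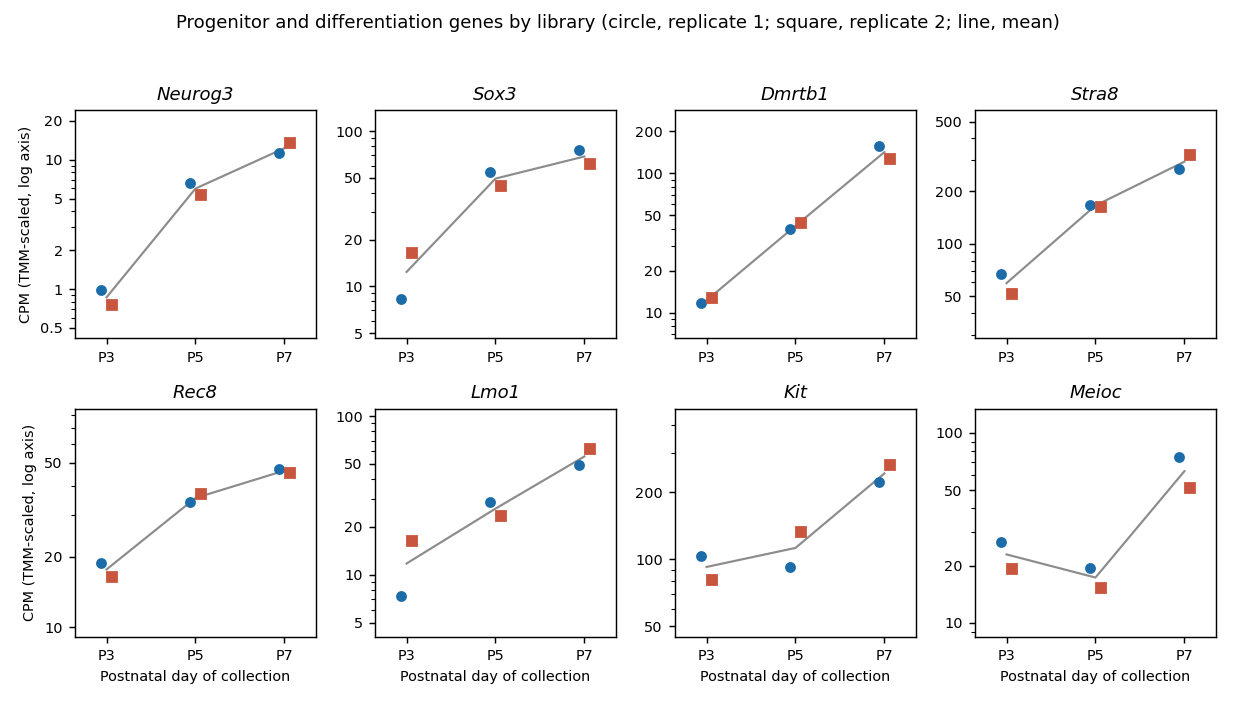
Levels of 8 progenitor and differentiation genes in each library (TMM-scaled CPM, log axis) by postnatal day of collection; circles and squares are replicates 1 and 2 and the line joins the means. Neurog3, Sox3, Stra8 and Rec8 are higher at P5 than at P3 in both libraries, whereas Kit and Meioc are highest at P7 only.

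Other genes among the largest rises were Gnai1 (an inhibitory G protein subunit), Tmsb4x (an actin-binding peptide), Rin2 (a Rab5 regulator), Lonrf3, Radx (a replication fork factor) and Hmgn5 (a nucleosome-binding protein). Lonrf3 was the most abundant of them, at 66.7 and 104 CPM at P3, 226 and 236 at P5, and 374 and 436 at P7 (log2 1.84 ± 0.26). Gnai1 and Hmgn5 lost their call without P3 replicate 1 (adjusted p = 0.13 and 0.081 by edgeR). Among these and Sox3, the genes Tmsb4x, Sox3, Lonrf3, Radx and Hmgn5 are on the X chromosome.

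The 2 steps were then taken apart. From P3 to P5, 75 genes rose (0.469% of those tested) and 400 fell (2.5%), and from P5 to P7, 177 rose (1.11%) and 166 fell (1.04%). Libraries did not overlap for 19.5% of genes upward and 28.4% downward in the first step, and for 24.8% and 22.2% in the second. The steps share the P5 libraries, so their values are set side by side and not correlated. Both counts depended on single libraries. Without P3 replicate 1 the first step gave 10 higher and 72 lower, without P3 replicate 2 it gave 83 and 478, and without P5 replicate 1 or 2 it gave 43 or 28 higher and 196 or 96 lower. The second gave 100, 38, 63 and 87 higher without P5 replicate 1, P5 replicate 2, P7 replicate 1 and P7 replicate 2, and 119, 76, 62 and 93 lower.

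Of the 26 GDNF and FGF genes 5 fell from P3 to P5, where 2.5% of all genes fell, and 11 from P5 to P7, where 1.04% did. With 1 library left out the counts were 1 to 6 and 5 to 11, and their difference was not tested; in CPM the summed level given above went down in both steps. Gfra1 changed by -0.70 ± 0.18 on the log2 scale in the first step and by -1.46 ± 0.19 in the second, Ret by -0.56 ± 0.18 and -1.40 ± 0.19, and Etv5 by -0.60 ± 0.23 and -1.54 ± 0.24. Foxc2, a forkhead factor of quiescent stem spermatogonia, was at 125 and 171 CPM at P3, 123 and 129 at P5 and 37.7 and 42.4 at P7. Its steps were -0.24 ± 0.35, which did not pass, and -1.65 ± 0.38. Whether the 2 steps of a gene differ was not tested.

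Some genes passed the test in the first step and not in the second, which does not show that they stayed level after P5. The steps of Nkx2-3 were -4.19 ± 0.54 and -0.48 ± 0.77, those of T -2.16 ± 0.36 and -0.65 ± 0.42, and those of Igdcc3 -3.005 ± 0.38 and -0.10 ± 0.48. The first steps of Ldha, Ldhb, Slc2a3 and Hk2 were -1.799, -1.73, -1.96 and -1.41, and none of the 4 passed the test in the second. Those of Igf2, Mest and Rasgrf1 were -1.67, -1.37 and -2.21, and the second did not pass. Without P3 replicate 1 the first step was no longer called for T, Ldhb, Slc2a3, Hk2 and Rasgrf1, and it was still called for Nkx2-3, Igdcc3, Ldha, Igf2 and Mest. To count as fallen over P5 and P7, a gene already needed a 2-fold lower average there, which partly fixes the next counts. The shares over all tested genes were not taken. Among the genes that fell, 317 had at least 20 CPM at P3. Of these, 178 were at 50% of their P3 mean or less by P5 and 301 by P7, and 284 were lower at P7 than at P5. Mest, for example, went from 61.0 and 68.0 CPM at P5 to 33.5 and 48.2 at P7, and the mean of Igf2 from 31.4% of its P3 level to 20.6%.

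**Figure D4:**
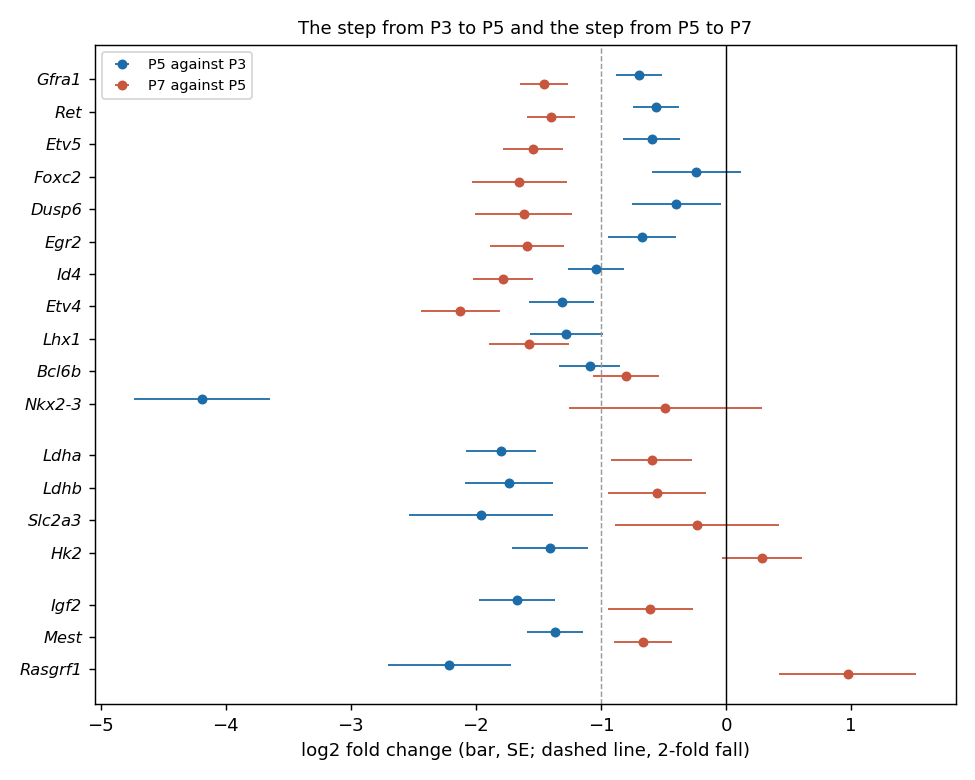
Log2 fold changes (points) with SE (bars) of 18 genes in the step from P3 to P5 (blue) and from P5 to P7 (red); the dashed line marks a 2-fold fall. Gfra1, Ret, Etv5 and Foxc2 lie further left in the second step, and Nkx2-3 and the glycolysis and imprinted genes in the first.

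Of the 24 differentiation genes 3 rose in the first step, where 0.469% of all genes rose, and 7 in the second, where 1.11% did. With 1 library left out these counts were 0 to 3 and 3 to 7, and their difference was not tested. The 3 were Stra8, Dmrtb1 and Rec8, and none of them was called in the first step without P3 replicate 1 (adjusted p = 0.187, 0.0601 and 0.126 by edgeR). Stra8 and Rec8 also lost that call without any 1 of the other P3 and P5 libraries. The 7 of the second step were Dmrtb1, Kit, Crabp1, a retinoic acid binding protein, Meioc, a meiotic RNA regulator, Rhox13, Prss50 and Ly6k. Crabp1 was at 83.4 and 73.8 CPM at P3, 104 and 91.9 at P5, and 215 and 223 at P7 (step 1.16 ± 0.20). Meioc was at 26.6 and 19.2, 19.4 and 15.2, and 74.5 and 51.2 CPM (step 1.87 ± 0.48). Of 36 meiotic genes 3 fell from P3 to P5 (Syce3, Mei1 and Majin), where 2.5% of all genes fell. In the step from P5 to P7, where 1.11% of all genes rose, 3 rose (Meioc, Mei1 and Majin). The first count was 0 without P3 replicate 1, and the second was 0 without P5 replicate 1, P5 replicate 2 or P7 replicate 1. Mei1 and Majin were thus called in both steps, Mei1 with 44.0 and 33.9, 11.4 and 14.1, and 34.9 and 31.8 CPM.

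Genes low at P5 led the second step. Prss50, a testis protease gene, was at 9.04 and 6.98 CPM at P3, 2.08 and 2.82 at P5, and 38.8 and 12.7 at P7, and Ly6k, a surface protein gene, was at 8.56 and 5.23, 2.08 and 5.92, and 40.2 and 15.8. Sgcb, a sarcoglycan, was at 14.7 and 6.23, 3.12 and 3.95, and 32.7 and 18.2 CPM. In all 3, P7 replicate 1 was the higher, and without it Prss50 and Ly6k lost their call (adjusted p = 0.098 and 0.1 by edgeR). Il1f9, an interleukin-1 family gene, and the RNA gene Mir9-3hg rose to 21.5 and 21.2 CPM and to 21.8 and 19.09 CPM from 2.08 to 2.77 at P5. Mir9-3hg lost its call without either P5 library or P7 replicate 1 (adjusted p = 0.0772, 0.138 and 0.0705 by edgeR). Rbp4, a retinol carrier, rose in this step from 21.5 and 17.2 CPM to 67.6 and 45.4, and Egr1, an immediate early factor, fell from 137 and 174 to 58.9 and 71.5. Grb10, an imprinted growth regulator, was at 34.2 and 18.9, 12.5 and 10.998, and 48.0 and 67.9 CPM.

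At the other end of the second step, Hs3st3b1 (a heparan sulfate sulfotransferase) was at 41.6 and 30.9 CPM at P3, 19.07 and 22.3 at P5 and 4.47 and 4.85 at P7. Plekhh3, Nefm (a neurofilament subunit) and Sez6 fell in this step, with log2 values of -2.14, -2.12 and -2.01. Nefm lost its call without P5 replicate 2 or either P7 library (adjusted p = 0.0667, 0.101 and 0.0784 by edgeR). Rspo2, an enhancer of WNT signalling, had its highest level at P5: it was at 10.3 and 30.2 CPM at P3, 73.8 and 61.2 at P5, and 26.5 and 30.3 at P7. It rose by 1.74 ± 0.33 on the log2 scale and then fell by 1.25 ± 0.33. The rise was no longer called without P3 replicate 1 (1.16, adjusted p = 0.148 by edgeR), and the fall was no longer called without any 1 of the P5 and P7 libraries (adjusted p 0.0723 to 0.232).

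X-linked genes made up a larger share of the genes that rose than of the genes tested, a pattern chosen for description after the values were seen. Of the 242 genes that rose 37 (15.3%) were on the X chromosome, against 611 of 15993 tested genes with a known chromosome (3.82%) and 16 of 938 that fell (1.71%). In other terms 6.06% of X-linked genes rose, against 0.72% to 2.46% on single autosomes. The median log2 fold change was 0.12 for X-linked genes and -0.06 for autosomal genes. The share among genes that rose was 21.3% for the first step and 9.04% for the second. Among genes that fell it was 1% and 5.42%. Under all settings tried the share among genes that rose was 11.7% to 33.3% for P5 and P7 against P3. For P7 against P5 the excess depended on the setting. There, limma with a pseudocount of 1 gave 6.06% of genes that rose and 6.6% of those that fell.

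Shares of reads were taken over the tested genes on the X chromosome and the autosomes. These 611 genes held 2.504% and 2.513% of such reads at P3, 2.612% and 2.701% at P5, and 2.676% and 2.712% at P7. Every P3 library thus lay below every later one. The shares had been 2.893% and 2.985% at P0 and 2.542% and 2.602% at P1. The genes that rose were picked for a low P3 level against later days, which favours a P3 mean below that of other days. The share of all tested genes with such a P3 mean was not taken. Of the 37 X-linked genes that rose, 29 had a lower mean at P3 than at both P0 and P1, as did 137 of the other 205 genes that rose. Tmsb4x, for example, had means of 32.1 CPM at P0 and 21.1 at P1, then 9.29 and 7.73 CPM in the P3 libraries and 34.5 to 55.1 later. Akap17b, Cnksr2 and Cited1 are further X-linked genes that rose, Cited1, a transcriptional co-activator, from 31.8 and 12.5 CPM at P3 and 32.2 and 22.6 at P5 to 114 and 113 at P7.

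**Figure D5:**
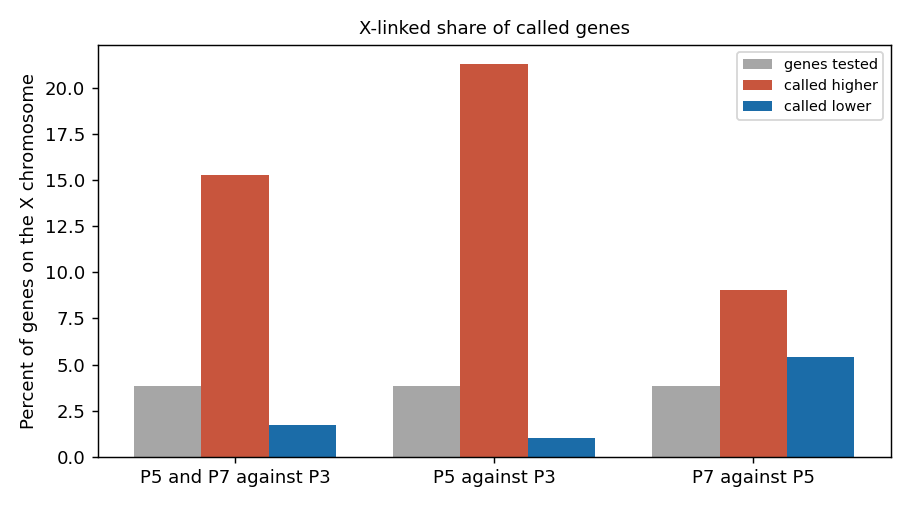
Percent of genes on the X chromosome among the genes tested (grey), those called higher (red) and those called lower (blue) in each comparison. The red bars reach 15.3%, 21.3% and 9.04% and the blue bars 1.71%, 1% and 5.42%, against 3.82% of tested genes.

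Beside the lists above, the markers of other cells were as follows, where 5.86% of all tested genes fell and 1.51% rose. Of the 21 Sertoli, 20 stromal and 6 Leydig genes 0 were called by edgeR or limma, DESeq2 called 2 Sertoli genes lower and 1 stromal gene higher, and at an unadjusted p below 0.05, 4 Sertoli genes and 1 Leydig gene were lower and 4 stromal genes higher. In a fit of the 20 in vivo libraries alone edgeR called 6 of 18 stromal genes higher and 3 of 21 Sertoli genes lower, and in a fit of the 6 libraries alone 2 of 8 stromal genes higher. The median log2 fold change of the stromal genes was 1.16, and Col1a1, the most abundant, stood at 25.9 and 26.2 CPM at P3, 40.6 and 48.2 at P5, and 26.0 and 32.1 at P7. The Sertoli genes Amh, Gata1 and Fshr and the Leydig genes Insl3, Hsd17b3 and Cyp11b1 were below the filter. Of 11 endothelial genes 4 fell: Tie1, Vwf, Pecam1 and Flt1, of which Flt1 was the most abundant with 24.2 and 23.7 CPM at P3 and 7.54 to 11.2 later. Tie1 and Flt1 lost their call without P3 replicate 1, and Pecam1 without P3, P5 or P7 replicate 2. The 16 macrophage and blood genes had 1 higher, Adgre1, at 0 in both P3 libraries and 0.909 to 2.26 CPM later, and 1 lower, Fcer1g, at 21.3 and 19.9 CPM at P3 and 2.23 to 13.8 later. DESeq2 called 3 higher and limma 2, 5 were higher at an unadjusted p below 0.05, and the fitted median log2 fold change was 3.15, with C1qb and C1qc among those at 0 at P3. Fcer1g lost its call without P3 replicate 1 (adjusted p = 0.0509), and Adgre1 without any 1 library other than P7 replicate 2 (adjusted p 0.0501 to 0.237 by edgeR). No tested marker of these 5 lists was at 0 in all 6 libraries, and their part in the changes of other genes was not tested.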

How the data were processed

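Messenger RNA 3′ ends of 62 libraries were counted by the authors, and no reads were aligned again here. The submitters' processing notes name HTSeq 0.9.1, TopHat2 2.0.11, cutadapt 1.9.1 and Bowtie2 2.2.7 with the build GRCm38.p6, and no settings or annotation are known here. Raw counts were taken from the deposited tables, whose headers, per the file headers, also list RPM. Of 36038 rows, 35914 nuclear genes entered; 13 mitochondrial genes, 96 spike-ins, 5 transgenes and 10 blank genes did not. Mitochondrial reads were 12.67% to 16.63% and spike-ins 3.979% to 7.031% of all reads in the 6 libraries, with 16.63% mitochondrial in P3 replicate 1.

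The filter kept the 16008 genes that reached 5 RPM in 2 or more of the 62 libraries, so a gene could pass through groups not compared here. Library sizes were scaled by TMM and fitted with robust quasi-likelihood in edgeR 4.0.16 (R 4.3.3), 1 coefficient for each of 31 groups, so all pairs of libraries share the estimate of spread; P5 and P7 were averaged on the log scale. The fitting code was tested on simulated data. Of genes with a true log2 change of 1, 36.4% were called for P5 and P7 against P3. For P5 against P3 34.8% were called and for P7 against P5 44.6%. At a true log2 change of 2 these shares were 95.5%, 92.4% and 95.3%. A list with 0 called can therefore hold true changes near 2-fold. Benjamini-Hochberg adjustment ran over all genes, and a call needed an adjusted p below 0.05 and 2-fold. A standard error is the log2 fold change over the root of F, an approximation. DESeq2 1.42.0 and limma 3.58.1 on log2(RPM + 1) or log2(RPM + 5) were alternatives, with other scalings, filters, sample sets, a replicate block, and each library left out.

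The comparison, gene lists and rules were chosen with earlier results of these data known. Named genes were the 10 highest and 10 lowest changes (5 for each step) among called genes with at least 20 CPM on the higher side and no overlap, up to 4 called members per list, and 9 set genes. Ret, Etv5, Foxc2, Dusp6, Spry1, Il17rd, Bcl6b, Tspan8, Pou5f1, Tcl1, Dppa4, Utf1, Tmem176b, Cxadr, Pkm, Crabp1, Meioc, Rhox13, Syce3, Mei1, Majin, Grb10, Akap17b, Cnksr2, Cited1, Rbp4, Egr1, Col1a1, C1qb, C1qc and Top2a were chosen after their values were seen. List members were counted and not tested as sets. The 2 libraries of a day differed beyond sampling noise (chi-squared over degrees of freedom 3.29 to 4.67), and equal replicate numbers did not deviate together (correlations -0.06, -0.013 and 0.079). A result that falls under the naming rule is not reported here.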

Additional observations from a re-analysis of the deposited data

How the results depend on the processing

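For P5 and P7 against P3, 71 named genes were called. None of those that could be fitted lost its call under DESeq2, both other scalings, both other filters, the 20 in vivo libraries, the 6 libraries alone or the replicate block, while 2 lost it under limma with a pseudocount of 1, 16 with 5, and 21 without P3 replicate 1. Of 51 named calls for P5 against P3, 37, 8, 23 and 26 were lost without P3 replicates 1 and 2 and P5 replicates 1 and 2, and of 22 for P7 against P5, 4, 9, 10 and 7 without P5 replicates 1 and 2 and P7 replicates 1 and 2. The counts higher and lower were 54 and 305 under limma with a pseudocount of 5; lower were 612 with the 6 libraries alone and 611 with a replicate block there. P7 alone against P3 gave 540 higher, and P5 alone 75 higher and 400 lower. Leaving out each library gave 114 to 215 higher and 413 to 996 lower. For P5 against P3 the counts were 45 higher (limma, 1), 25 and 212 (limma, 5), 165 and 712 (in vivo alone), and 10 to 83 and 72 to 478 with libraries left out. Among genes called higher, P7 against P5, there were 106 under limma with 5, 326 with the in vivo libraries alone, and 38 to 177 with libraries left out; those lower were 106 (limma, 1), 88 (limma, 5), 287 (in vivo alone) and 62 to 166. With the replicate block in the fit of all groups the counts were 247 and 947, 77 and 408, and 186 and 173; it changed no call of a named gene, and the numbers do not pair the samples. The cause of these shifts was not tested.

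Directions turned for 5 genes, all in uncalled changes over P5 and P7. Prss50 went to -0.032 without TMM, -0.026 under limma with a pseudocount of 1, -0.011 and -0.02 with the replicate block in all and in 6 libraries, and from -0.509 to 0.294 with libraries left out. Sgcb went to 0.074 under limma with a pseudocount of 5 and from -0.622 to 0.613 with libraries left out, and Nanos2 from -1.002 to 0.139. Ddx4 went to 0.004 under filterByExpr. Rhox12, with reads in P5 replicate 1 alone, ranged from 0.000 to 1.54. Calls at a few CPM rest on few reads, where 1 library can decide them.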
